A study of Mus musculus with 4 samples.

Results

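The 39 genes described here encode enzymes that handle amino acids, nitrogen and methyl groups in the liver. They are named genes of the urea cycle, of glutamine, glutamate and other transaminase reactions, of the breakdown of tyrosine, tryptophan, histidine, serine, glycine, proline and lysine, and of methionine and one-carbon metabolism. The list was drawn up by function but with earlier results of these data known. Shares of the members set beside shares of all genes below are therefore descriptions and not tests. All 39 were found among the 56748 genes of the deposited table, and all 39 passed the filter on low values that left 10819 genes for testing. The study compared livers of 2 NSG mice given JIB-04 with livers of 2 untreated NSG mice. JIB-04 is a small molecule that inhibits Jumonji histone demethylases, enzymes that take methyl marks off histone tails. The JIB-04 mice received 55 mg/kg by oral gavage in 5 doses at 2 doses a week, and the other mice were left untreated, so no mouse received gavage with vehicle alone. All mice carried the NSG background and are labelled WT. The sources used here do not state age, sex or the hour of collection. NSG mice are immunodeficient, and Cd3e, which marks T cells, was at 0 in all 4 livers.

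The liver is the main site where amino acids are broken down. Transaminases and dehydrogenases strip off nitrogen as glutamate or ammonia, and the urea cycle converts ammonia into urea in hepatocytes around the portal vein, while hepatocytes around the central vein capture what is left as glutamine. Methionine is turned into S-adenosylmethionine, the methyl donor of the cell, and its sulfur passes through homocysteine to cysteine by transsulfuration. Many of these genes are known to answer glucagon, glucocorticoids and feeding.

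Values are FPKM (reads per kilobase of gene, scaled to the depth of the library, as the authors deposited them), each from 1 liver, and levels are compared between genes on this scale. Folds divide one group's mean FPKM by the other's. A log2 change is JIB-04 minus untreated on the log2(FPKM + 1) scale, which understates changes of genes with low values. A gene was called changed at a limma adjusted p under 0.05, adjusted by Benjamini-Hochberg over all 10819 genes tested. The 4 libraries held 36469514 to 43283827 reads, and a member held from 316 to 164211 reads in a library. Hepatocyte markers were abundant in every liver, and their sum was 48183 and 40245 FPKM in JIB-04 livers 1 and 2, against 68956 and 65072 FPKM in untreated livers 1 and 2. Most of that sum was Alb, the albumin gene, at 31689 and 22910 FPKM in JIB-04 livers and at 46658 and 46858 FPKM in untreated livers (limma adjusted p = 0.144). In bulk liver, fewer cells of a type and less RNA per cell cannot be told apart. Of 6 hepatocyte, 7 periportal and 6 tested pericentral markers limma called 0. An unadjusted p under 0.05 was found for 2, 3 and 1 of them (33.3%, 42.9% and 16.7%), against 15.5% of all tested genes. The 3 periportal ones differed in both directions, with log2 changes of 0.66 for Cyp2f2, -0.61 for Pigr and -1.23 for G6pc. Sums of the 7 macrophage markers were 236 and 286 FPKM in JIB-04 livers and 308 and 262 FPKM in untreated livers. Red cell transcripts summed to 617 and 1669 FPKM in JIB-04 livers and 2769 and 1715 FPKM in untreated livers, with JIB-04 liver 1 lowest. Neutrophil markers summed to 44.9 and 72.9 FPKM in JIB-04 livers and 26.0 and 6.47 FPKM in untreated livers. S100a8 carried that difference, at 36.3 and 63.0 FPKM in JIB-04 livers and 6.68 and 2.40 FPKM in untreated livers (limma adjusted p = 0.131). S100a9 had 7.51 and 8.45 FPKM in JIB-04 livers and 18.7 and 4.01 FPKM in untreated livers, with overlap, and Ly6g had at most 2 reads in any liver. Retnlg, which was under the filter on low values, had 28 and 31 reads in JIB-04 livers and 12 and 0 reads in untreated livers. The part of these differences in the results was not tested.

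Oat rose and Etnppl fell in JIB-04 liver, and the other 37 members were not called. Oat encodes ornithine aminotransferase, which converts ornithine to a precursor of glutamate and proline. Etnppl encodes a phospho-lyase that breaks down phosphoethanolamine. The called share was 5.13% of members (1 higher, 1 lower), against 2.14% of all tested genes (1.53% higher, 0.619% lower). It was 6.40% of the 1000 highest tested genes by mean FPKM, a range that held 32 of the 39 members. The median log2 change was -0.18 over the members and 0.01 over all tested genes. A negative log2 change was found for 27 of 39 members, against 48.6% of tested genes and 46.2% of the 1000 highest, and for 30 members after 2 of the 4 rescalings tried, where Nags, Hal and Uroc1 turned negative. At or below -0.5 on the log2 scale were 10 of 39 members (25.6%), against 3.82% of tested genes and 7.20% of the 1000 highest. At or above 0.5 were 2 members, against 5.29% of tested genes. The groups did not overlap for 27 members (69.2%), lower in JIB-04 for 18 and higher for 9. Among all tested genes 46.4% did not overlap (21.8% lower, 24.6% higher), and among the 1000 highest 58.9%. An unadjusted p under 0.05 was found for 16 members (41.0%), against 15.5% of tested genes. That share was not taken for the 1000 highest genes, where calls and groups without overlap were more frequent than among all tested genes.

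**Figure D1:**
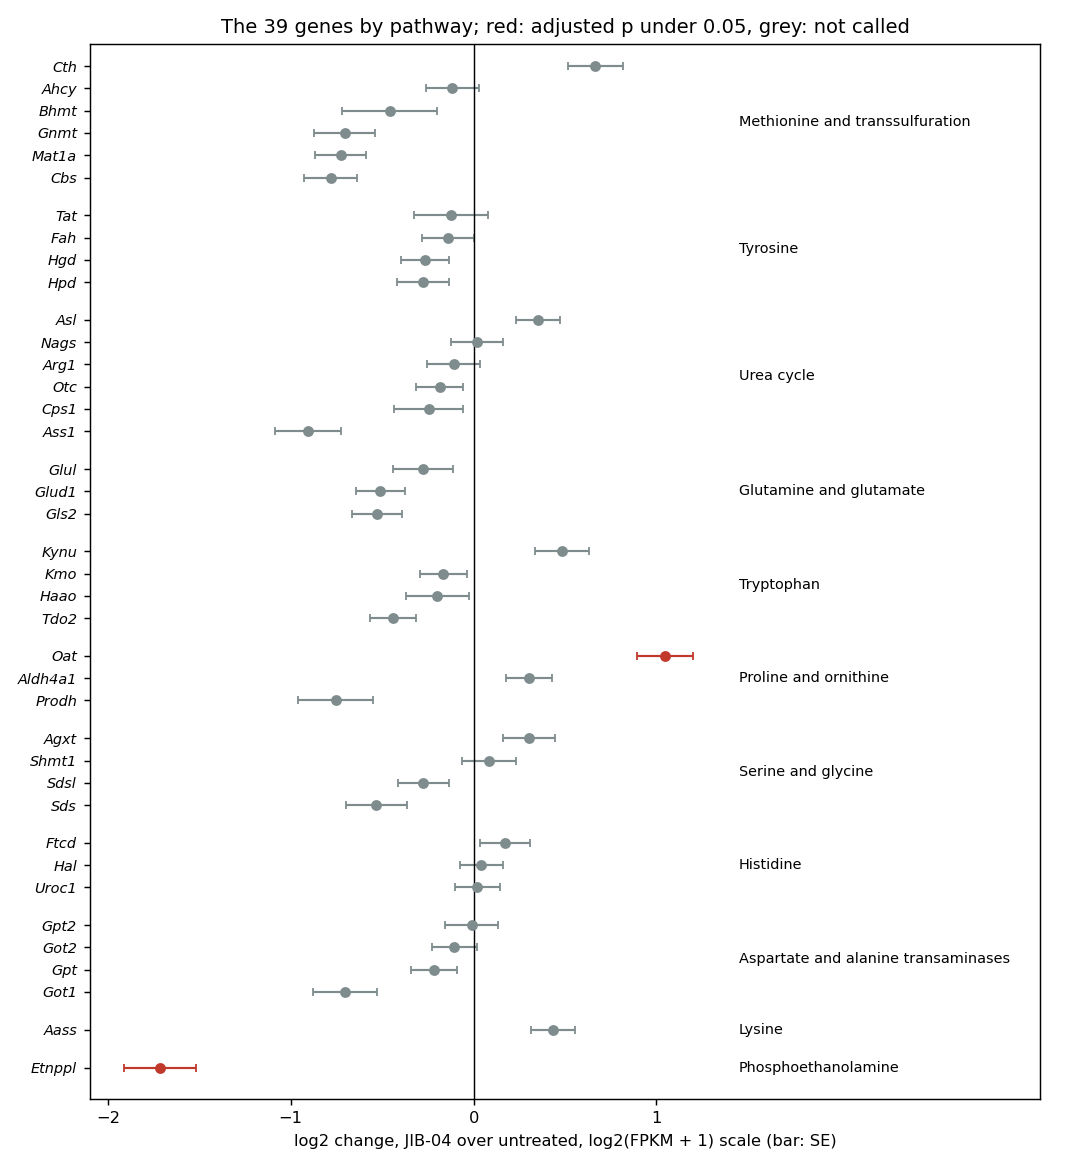
Log2 change of each of the 39 genes (JIB-04 over untreated, log2(FPKM + 1) scale, bar 1 SE of the limma fit, 2 livers per group), grouped by pathway, with called genes in red. Oat at 1.05 and Etnppl at -1.72 are the called genes, and most grey points lie left of 0.

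The members together took 2.18% and 2.34% of reads in JIB-04 livers 1 and 2, against 2.61% and 2.99% in untreated livers 1 and 2. Their FPKM summed to 7085 and 7550 in JIB-04 livers and to 8525 and 9526 in untreated livers. Untreated liver 2 was above untreated liver 1 for 30 of the 39 members, against 49.8% of all tested genes. JIB-04 liver 2 was above JIB-04 liver 1 for 27 members, against 49.3% of tested genes. Livers of 1 group therefore differed in the same direction at many members. The 27 members with a negative log2 change between groups are no more than these counts between livers of 1 group.

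Promoter windows from RefSeq (GRCm38.p6, 250 bases before and 50 after the gene's start) were found for 29 of the 39 members, and 5 are shown because the results turn on these genes. Oat and Etnppl are the called genes, Ass1 and Cbs have the most negative log2 changes on the log2(FPKM + 1) scale among the members not called, and Gnmt stands next to Mat1a in the methionine cycle. Lower case is the reference sequence read 5′ to 3′ on the gene's strand, and capitals mark any match to AGGTCA (the core motif of many nuclear receptors), TTGCNNAA (C/EBP factors), TGTTCT (the core of glucocorticoid receptor sites), CACGTG (the E-box) or TATAAA (the TATA box), searched on both strands. The members' windows are on GRCm38.p6, whereas the deposited gene coordinates given below are on GRCm39.
Oat promoter, chr7:132576349-132576648, minus strand: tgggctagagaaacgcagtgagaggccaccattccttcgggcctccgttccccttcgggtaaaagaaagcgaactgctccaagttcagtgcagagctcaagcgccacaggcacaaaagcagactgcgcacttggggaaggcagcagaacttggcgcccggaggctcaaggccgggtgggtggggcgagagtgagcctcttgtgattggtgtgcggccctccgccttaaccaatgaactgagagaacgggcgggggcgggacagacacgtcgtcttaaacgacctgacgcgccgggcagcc
Etnppl promoter, chr3:130617198-130617497, plus strand: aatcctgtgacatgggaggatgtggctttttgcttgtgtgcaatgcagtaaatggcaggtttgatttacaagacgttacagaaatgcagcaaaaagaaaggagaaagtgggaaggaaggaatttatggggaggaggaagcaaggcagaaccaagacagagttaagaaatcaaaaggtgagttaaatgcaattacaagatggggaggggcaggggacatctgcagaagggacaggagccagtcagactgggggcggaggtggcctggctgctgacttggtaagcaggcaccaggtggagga
Cbs promoter, chr17:31637156-31637455, minus strand: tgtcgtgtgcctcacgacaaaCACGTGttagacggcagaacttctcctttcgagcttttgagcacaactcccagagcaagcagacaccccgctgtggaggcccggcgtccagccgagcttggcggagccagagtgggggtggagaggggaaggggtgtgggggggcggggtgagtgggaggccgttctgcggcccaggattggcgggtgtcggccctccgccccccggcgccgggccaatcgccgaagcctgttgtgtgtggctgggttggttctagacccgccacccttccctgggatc
Ass1 promoter, chr2:31470020-31470319, plus strand: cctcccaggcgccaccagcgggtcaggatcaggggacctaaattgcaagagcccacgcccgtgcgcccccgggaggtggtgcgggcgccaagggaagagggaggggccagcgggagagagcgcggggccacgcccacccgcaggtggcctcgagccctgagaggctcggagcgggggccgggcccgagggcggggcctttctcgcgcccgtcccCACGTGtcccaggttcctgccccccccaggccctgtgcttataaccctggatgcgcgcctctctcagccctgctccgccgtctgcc
Gnmt promoter, chr17:46729116-46729415, minus strand: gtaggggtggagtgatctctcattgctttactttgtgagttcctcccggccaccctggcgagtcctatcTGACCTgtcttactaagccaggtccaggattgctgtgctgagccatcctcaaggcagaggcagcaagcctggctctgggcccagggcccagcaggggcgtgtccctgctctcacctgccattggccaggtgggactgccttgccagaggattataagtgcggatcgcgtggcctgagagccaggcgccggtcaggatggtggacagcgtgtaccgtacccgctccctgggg
The windows of Oat and Etnppl held none of the 5 motifs. CACGTG was in the windows of Cbs and Ass1 and of no other member, 2 of 29 (6.9%), against 7.24% of all 27025 promoter windows of that length. AGGTCA was in 12 of 29 member windows (41.4%), against 16% of all windows, with 3 matches in that of Bhmt. Among the members detailed below it was in those of Gnmt and Got1. TTGCNNAA was in 3 of 29 (10.3%) against 10.7%, TGTTCT in 3 of 29 (10.3%) against 19%, and TATAAA in 5 of 29 (17.2%) against 14.2%. None of the 5 motifs contains another. A match is a description of letters and not of a bound site.

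In the proline and ornithine group Oat was called higher and the members Prodh and Aldh4a1 were not called. Oat (ENSMUSG00000030934, chromosome 7, 132159207 to 132178127, minus strand, GRCm39) had 271 and 322 FPKM in JIB-04 livers 1 and 2, against 153 and 132 FPKM in untreated livers 1 and 2. Both JIB-04 livers were above both untreated livers. The mean was 297 ± 36.6 FPKM in JIB-04 and 143 ± 15.1 FPKM in untreated liver (SD, n = 2 each), 2.08-fold higher (log2 change 1.05, SE 0.152, limma adjusted p = 0.0248). The Oat call rested on 27379 and 27938 reads in JIB-04 livers and 13275 and 11770 reads in untreated livers. It ended without untreated liver 2 (limma adjusted p = 0.0731), without JIB-04 liver 1 (0.125), without JIB-04 liver 2 (0.192) and without the filter on low values (0.211), with a lowest value of 0.00101 over 16 alternatives. Prodh, proline dehydrogenase, the entry enzyme of proline breakdown, had 10.7 and 11.6 FPKM in JIB-04 livers and 15.6 and 24.2 FPKM in untreated livers. All JIB-04 values were lower, but the untreated livers lay far apart, and the difference was not called (log2 change -0.75, limma adjusted p = 0.150). Without untreated liver 1 Prodh passed (log2 change -1.05, limma adjusted p = 0.0362), and without untreated liver 2 its log2 change was -0.45 (limma adjusted p = 0.342). Aldh4a1, the dehydrogenase that makes glutamate from the product shared by Oat and Prodh, averaged 68.8 ± 0.183 FPKM in JIB-04 and 55.8 ± 5.80 FPKM in untreated liver (log2 change 0.30, limma adjusted p = 0.326). Summed over the group, FPKM was 350 and 403 in JIB-04 livers and 221 and 216 in untreated livers.

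Etnppl (ENSMUSG00000019232, chromosome 3, 130411097 to 130431170, plus strand, GRCm39) had the lowest mean FPKM of all members in either group, although in untreated liver 2 Sdsl was lower, at 6.21 FPKM. It had 0.926 and 1.17 FPKM in JIB-04 livers 1 and 2, against 4.59 and 7.06 FPKM in untreated livers 1 and 2. The groups did not overlap, and the untreated livers differed more from each other than the JIB-04 livers did. Etnppl fell to a mean of 1.05 ± 0.170 FPKM in JIB-04 liver, against 5.82 ± 1.74 FPKM in untreated liver (SD, n = 2 each), and the untreated mean was 5.56 times the JIB-04 mean (log2 change -1.72, SE 0.195, limma adjusted p = 0.0125). These values came from 328 and 354 reads in JIB-04 livers and 1390 and 2202 reads in untreated livers. The call ended without JIB-04 liver 1 (limma adjusted p = 0.149), without JIB-04 liver 2 (0.153) and without the filter on low values (0.176), and was kept in 12 of 15 alternatives, down to 0.000447. On recovered reads with voom, which has no pseudocount of 1 FPKM, the log2 change was -2.46. Of the 5 other tested genes of ethanolamine and phosphoethanolamine metabolism, 0 were called by limma, Sgpl1 and Selenoi had an unadjusted p under 0.05, and their median log2 change was 0.28.

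**Figure D2:**
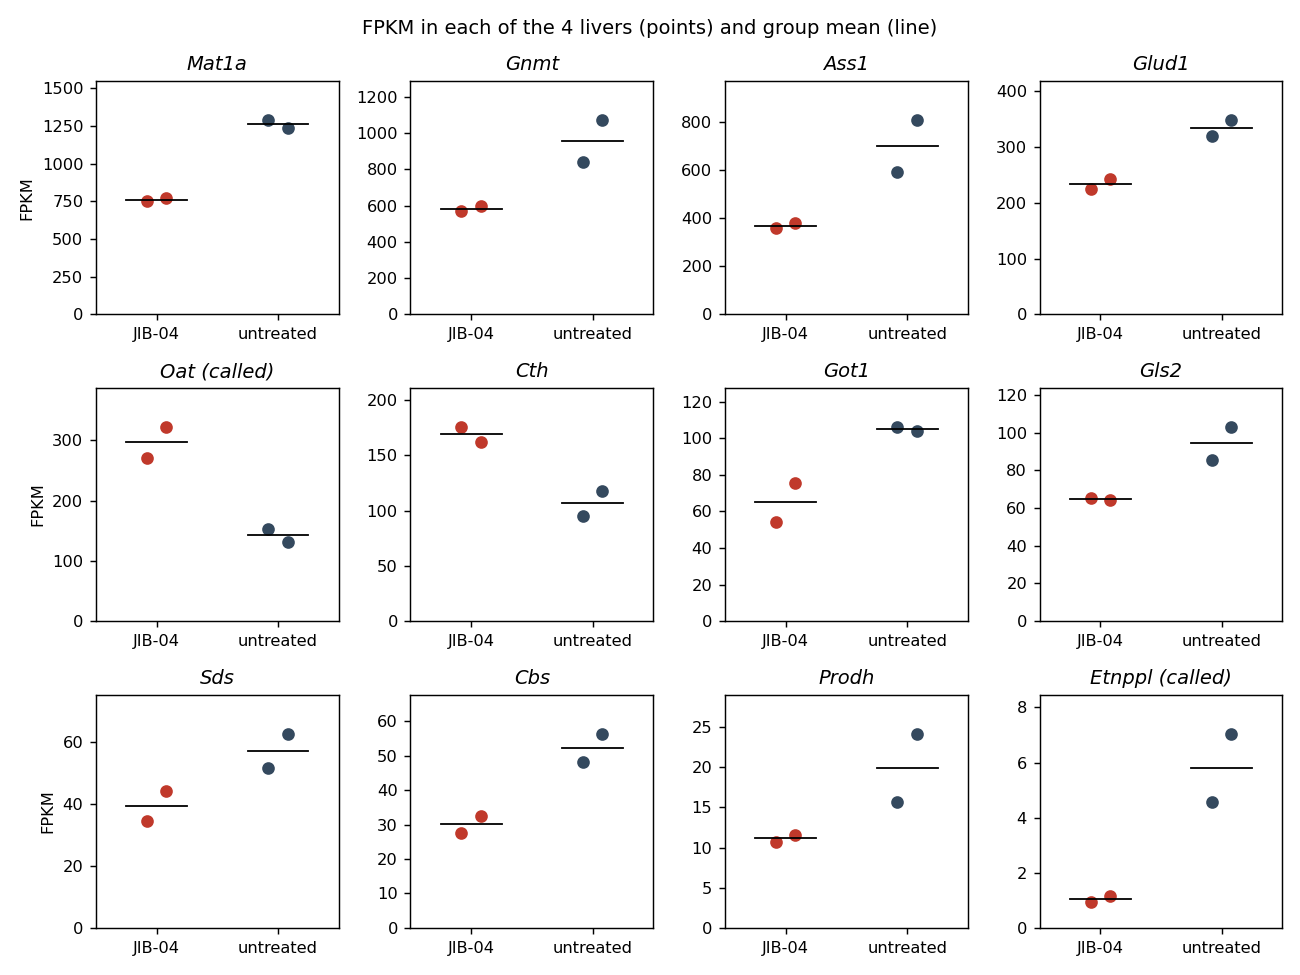
FPKM in each liver for the 12 members given in detail (points, 2 JIB-04 and 2 untreated livers, line at the group mean, each y axis from 0). The groups do not overlap in any of the 12, with Oat and Cth higher in JIB-04 liver and the other 10 lower. The 12 were chosen by a call or by the size of their change, which favours groups without overlap. Among all tested genes 46.4% did not overlap.

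The methionine cycle and transsulfuration enzymes had 0 members called by limma, while 4 of 6 had an unadjusted p under 0.05 and did not overlap between groups, with 3 lower and 1 higher in JIB-04 liver. This share without overlap, 66.7%, stands beside 46.4% of all tested genes and 58.9% of the 1000 highest. The same 4, Mat1a, Gnmt, Cbs and Cth, passed with voom on recovered reads. Mat1a (ENSMUSG00000037798, chromosome 14, 40826992 to 40846369) encodes the liver's methionine adenosyltransferase, which makes S-adenosylmethionine. Its mean over the 4 livers was the highest of all members, although Hpd, at 757 and 835 FPKM, was above it in both JIB-04 livers. It had 751 and 773 FPKM in JIB-04 livers, against 1291 and 1235 FPKM in untreated livers, with little spread in either group (log2 change -0.73, SE 0.138, limma adjusted p = 0.0548). It passed in 6 of 16 alternatives. Gnmt, glycine N-methyltransferase, which uses up S-adenosylmethionine, had 568 and 596 FPKM in JIB-04 livers, against 840.3 and 1074 FPKM in untreated livers (log2 change -0.71, limma adjusted p = 0.0968, passing in 2 of 16 alternatives). Both genes were lower in each JIB-04 liver than in either untreated liver. Cbs (ENSMUSG00000024039, chromosome 17, 31827868 to 31856212), cystathionine beta-synthase, which commits homocysteine to transsulfuration, had 27.5 and 32.6 FPKM in JIB-04 livers, against 48.3 and 56.4 FPKM in untreated livers. Its limma adjusted p was 0.0504 (log2 change -0.78, SE 0.144), and it passed in 7 of 16 alternatives (range 0.00624 to 0.288). Cth (ENSMUSG00000028179, chromosome 3, 157599885 to 157630714), cystathionine gamma-lyase, the next enzyme, which releases cysteine, differed in the opposite direction. Cth had 176 and 162 FPKM in JIB-04 livers, against 95.2 and 118 FPKM in untreated livers (log2 change 0.67, limma adjusted p = 0.0833, passing in 2 of 16 alternatives). Gm43314, a further transcript listed on the same strand within the same span, had 3.80 and 4.63 FPKM in JIB-04 livers and 1.38 and 1.83 FPKM in untreated livers. The ratio of Cth to Cbs within a liver, chosen after the values were seen, was 6.39 and 4.98 in JIB-04 livers and 1.97 and 2.09 in untreated livers. Ahcy, which hydrolyses S-adenosylhomocysteine, averaged 147 ± 14.1 FPKM in JIB-04 and 160 ± 16.9 FPKM in untreated liver (log2 change -0.12, limma adjusted p = 0.784). Bhmt, which remethylates homocysteine with betaine, had 97.2 and 161 FPKM in JIB-04 livers and 157 and 189.5 FPKM in untreated livers, and JIB-04 liver 2 reached into the untreated range (limma adjusted p = 0.496). The group's FPKM summed to 1777 and 1862 in JIB-04 livers and to 2604 and 2820 in untreated livers, and its median log2 change was -0.58.

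Among 20 other tested genes of methionine, sulfur and methyl metabolism 1 rose, 0 fell and 19 were not called, with a median log2 change of -0.07. The gene that rose was Nnmt, nicotinamide N-methyltransferase, which spends S-adenosylmethionine on nicotinamide. Nnmt averaged 34.7 ± 1.62 FPKM in JIB-04 and 17.5 ± 0.537 FPKM in untreated liver (SD, n = 2 each; log2 change 0.94, SE 0.117, limma adjusted p = 0.0155). Mat2a, the methionine adenosyltransferase of most other tissues, had 30.3 and 27.0 FPKM in JIB-04 livers and 21.2 and 21.8 FPKM in untreated livers (limma adjusted p = 0.180). The ratio of Mat1a to Mat2a, also chosen after the values were seen, was 24.8 and 28.6 in JIB-04 livers and 60.8 and 56.6 in untreated livers. Of 8 tested folate genes, which carry the carbon units for these methyl groups, 0 were called by limma and Fpgs alone had an unadjusted p under 0.05 (limma adjusted p = 0.299).

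The urea cycle had 0 of 6 members called by limma, and Ass1 and Asl had an unadjusted p under 0.05. Ass1 (ENSMUSG00000076441, chromosome 2, 31360219 to 31410684), argininosuccinate synthase, which joins citrulline to aspartate, had 357 and 379 FPKM in JIB-04 livers 1 and 2, against 591 and 807 FPKM in untreated livers 1 and 2. Both JIB-04 values were lower, and the untreated livers were spread widely (log2 change -0.91, SE 0.180, limma adjusted p = 0.0612). Ass1 passed in 7 of 16 alternatives, with a log2 change of -1.13 and a limma adjusted p of 0.0300 without untreated liver 1, and of -0.68 and 0.138 without untreated liver 2. A pseudogene, Gm5424, shares 38.6% of the 50-base words of the Ass1 transcripts, and stood at 164 and 191 FPKM in JIB-04 livers and 228 and 254 FPKM in untreated livers. How the authors counted reads common to both is not stated. Asl, argininosuccinate lyase, the next step, had 137 and 135 FPKM in JIB-04 livers and 102 and 110.5 FPKM in untreated livers (log2 change 0.35, limma adjusted p = 0.229). The ratio of Ass1 to Asl, chosen after the values were seen, was 2.61 and 2.80 in JIB-04 livers and 5.78 and 7.30 in untreated livers. Cps1, carbamoyl phosphate synthetase, which takes up ammonia into the cycle, had 466 and 396 FPKM in JIB-04 livers and 438 and 593 FPKM in untreated livers, with overlap (limma adjusted p = 0.612). Its activator is made by Nags, which averaged 21.6 ± 3.36 FPKM in JIB-04 and 21.2 ± 0.325 FPKM in untreated liver (limma adjusted p = 0.976). Otc, which makes citrulline, averaged 107 ± 8.57 FPKM in JIB-04 and 122 ± 5.43 FPKM in untreated liver (limma adjusted p = 0.575). Arg1, arginase, which releases urea, averaged 514 ± 0.0882 FPKM in JIB-04 and 556 ± 62.8 FPKM in untreated liver (limma adjusted p = 0.802). Of 3 further tested urea cycle genes 0 were called by limma, and Slc25a15, the mitochondrial ornithine carrier, was the 1 gene with an unadjusted p under 0.05, at 44.1 and 47.1 FPKM in JIB-04 livers and 54.8 and 58.0 FPKM in untreated livers (limma adjusted p = 0.290).

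**Figure D3:**
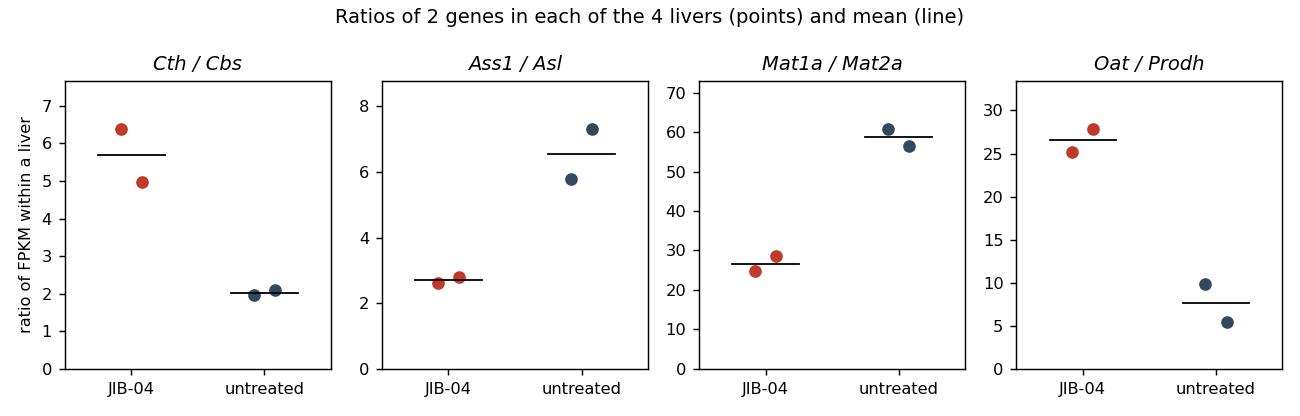
Ratio of the FPKM of 2 genes within each liver (points, 2 JIB-04 and 2 untreated livers, line at the mean, y axis from 0), for pairs chosen after the values were seen and shown without a test. Cth to Cbs and Oat to Prodh were higher in both JIB-04 livers, and Ass1 to Asl and Mat1a to Mat2a were lower in both.

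Log2 changes were negative for all 3 glutamine and glutamate enzymes and all 4 aspartate and alanine transaminases. Among all 39 members 27 were negative, and among all tested genes 48.6%. Limma called 0 of these 7, against 2.14% of all tested genes. An unadjusted p under 0.05 was found for Gls2, Glud1 and Got1, and voom called Gls2 and Got1. Gpt2 turned positive in some alternatives. Gls2, the liver glutaminase that frees ammonia beside the urea cycle, had 65.5 and 64.1 FPKM in JIB-04 livers, against 85.5 and 103 FPKM in untreated livers (log2 change -0.53, limma adjusted p = 0.123, passing with voom alone of 16 alternatives). Glud1, glutamate dehydrogenase, had 225 and 243 FPKM in JIB-04 livers, against 319 and 349 FPKM in untreated livers (log2 change -0.51, limma adjusted p = 0.125). The groups of both genes did not overlap. Glul, glutamine synthetase of the pericentral cells, had 190.4 and 234 FPKM in JIB-04 livers and 281 and 232 FPKM in untreated livers, with overlap (limma adjusted p = 0.513). Got1, the cytosolic aspartate aminotransferase, had 54.4 and 75.7 FPKM in JIB-04 livers, against 106 and 104 FPKM in untreated livers (log2 change -0.70, limma adjusted p = 0.111, passing in 2 of 16 alternatives). The mitochondrial form Got2 averaged 81.0 ± 6.15 FPKM in JIB-04 and 87.1 ± 1.38 FPKM in untreated liver (log2 change -0.11, limma adjusted p = 0.762). The alanine aminotransferases Gpt and Gpt2 had log2 changes of -0.22 and -0.01 and were not called. Summed FPKM of Glul, Gls2 and Glud1 was 481 and 542 in JIB-04 livers and 686 and 684 in untreated livers.

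In tyrosine and tryptophan breakdown limma called 0 of 8 members, with or without voom, and Tdo2 and Kynu had an unadjusted p under 0.05. Tat, tyrosine aminotransferase, a classic glucocorticoid target, had 427 and 499 FPKM in JIB-04 livers and 419 and 604 FPKM in untreated livers, so the untreated livers enclosed the JIB-04 values (limma adjusted p = 0.848). The later tyrosine enzymes Hpd, Hgd and Fah had log2 changes of -0.28, -0.26 and -0.14, and limma adjusted p ran from 0.414 to 0.712. Tdo2, tryptophan dioxygenase, the entry enzyme of the kynurenine pathway, had 209 and 217 FPKM in JIB-04 livers, against 289 and 289 FPKM in untreated livers (log2 change -0.44, limma adjusted p = 0.151). Kynu, kynureninase, further down the same route, had 24.9 and 31.2 FPKM in JIB-04 livers, against 18.8 and 20.6 FPKM in untreated livers (log2 change 0.48, limma adjusted p = 0.171). Tdo2 and Kynu thus differed in opposite directions without overlap, and neither was called. Kmo and Haao had log2 changes of -0.17 and -0.20 and were not called. The 4 further tested tryptophan genes included 0 called by limma and 2 with an unadjusted p under 0.05, both higher in JIB-04 liver. Afmid, which makes kynurenine, averaged 15.2 ± 0.0977 FPKM in JIB-04 and 9.81 ± 0.454 FPKM in untreated liver (limma adjusted p = 0.0592). Acmsd, which diverts the pathway away from NAD, averaged 5.54 ± 0.549 FPKM in JIB-04 and 3.14 ± 0.350 FPKM in untreated liver (limma adjusted p = 0.0627).

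The histidine, serine, glycine and lysine enzymes had 0 of 8 members called by limma, with or without voom, and Sds and Aass had an unadjusted p under 0.05. The histidine enzymes Hal, Uroc1 and Ftcd had log2 changes of 0.04, 0.02 and 0.17, and limma adjusted p ran from 0.629 to 0.968. Hal, which opens histidine breakdown and is periportal, had 46.1 and 48.2 FPKM in JIB-04 livers and 46.1 and 45.4 FPKM in untreated livers. Sds, serine dehydratase, which feeds serine into glucose production, had 34.5 and 44.2 FPKM in JIB-04 livers, against 51.7 and 62.8 FPKM in untreated livers (log2 change -0.53, limma adjusted p = 0.186). Sdsl, its relative, averaged 5.59 ± 0.231 FPKM in JIB-04 and 7.01 ± 1.14 FPKM in untreated liver (limma adjusted p = 0.423). Agxt, which detoxifies glyoxylate to glycine, had 173 and 209 FPKM in JIB-04 livers and 149.95 and 157 FPKM in untreated livers (limma adjusted p = 0.383). Shmt1, which moves a carbon unit from serine to folate in the cytosol, averaged 75.9 ± 2.10 FPKM in JIB-04 and 72.1 ± 12.3 FPKM in untreated liver (limma adjusted p = 0.860). Aass, which opens lysine breakdown, had 80.8 and 74.8 FPKM in JIB-04 livers, against 55.5 and 59.1 FPKM in untreated livers, with no overlap (log2 change 0.43, limma adjusted p = 0.146). Of 10 further tested serine and glycine genes limma called 0, and Shmt2, Gldc, Srr and Glyctk had an unadjusted p under 0.05. Shmt2, the mitochondrial counterpart of Shmt1, averaged 64.2 FPKM in JIB-04 and 42.6 FPKM in untreated liver (limma adjusted p = 0.0675), and Gldc, of the glycine cleavage system, averaged 24.5 FPKM in JIB-04 and 14.9 FPKM in untreated liver (limma adjusted p = 0.112). Of 6 further lysine genes limma called 0, and Pipox had an unadjusted p under 0.05 (limma adjusted p = 0.148).

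Over all pathways, 123 further genes of amino acid, urea and one-carbon metabolism were listed and 102 were tested, of which 1 rose, 1 fell and 100 were not called, a called share of 1.96%. The gene that fell was Slc43a1, a carrier of large neutral amino acids, with 0.735 and 0.648 FPKM in JIB-04 livers, against 1.94 and 2.16 FPKM in untreated livers (log2 change -0.85, limma adjusted p = 0.0351). Its mean over the 4 livers passed the filter through the untreated livers. The groups did not overlap for Slc43a1 or for Nnmt, and neither call held without any 1 of the 4 livers, since 0 of these genes were then called. Of 12 tested amino acid carriers, Slc43a1 included, 10 (83.3%) had negative log2 changes, against 48.6% of all tested genes, and the median was -0.37. The other 2, Slc38a4 and Slc6a13, had log2 changes of 0.53 and 0.61. Summed over the 14 carriers listed, FPKM was 826 and 756 in JIB-04 livers and 802 and 812 in untreated livers. Slc6a13, a taurine and GABA carrier, was the gene of lowest p among those not called, at 78.1 ± 4.36 FPKM in JIB-04 and 50.8 ± 0.544 FPKM in untreated liver (limma adjusted p = 0.0589). The 16 tested genes of branched-chain amino acid breakdown had 0 called by limma and a median log2 change of -0.00, and Dbt, Acadsb and Pcca had an unadjusted p under 0.05.

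**Figure D4:**
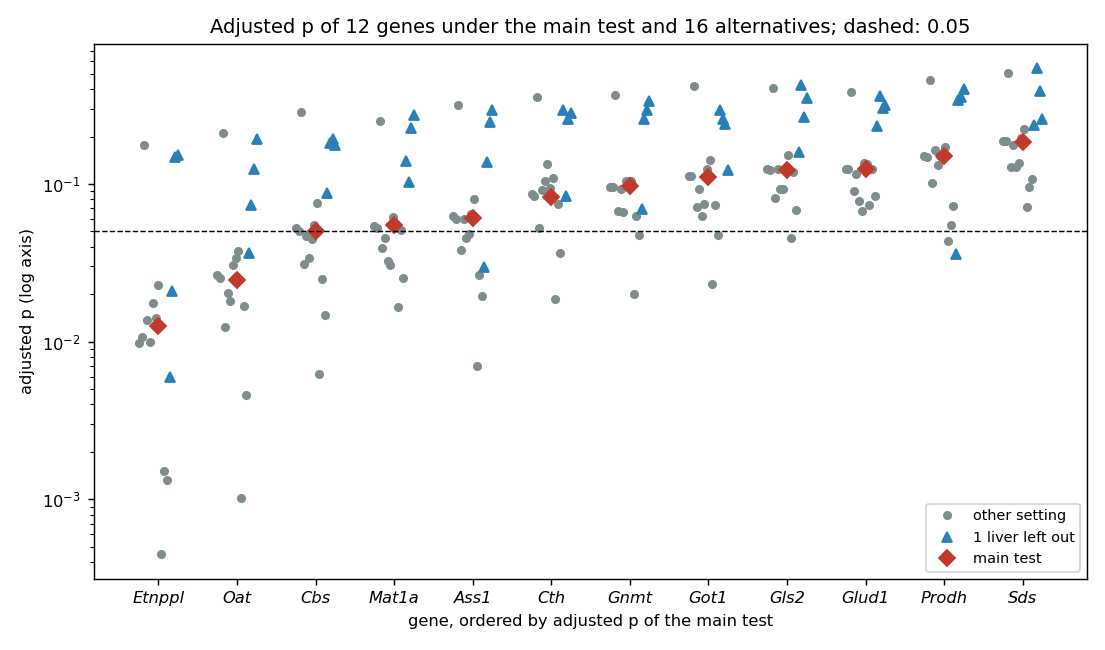
Limma adjusted p (log axis) of the 12 members given in detail under the main test (diamonds), under alternative settings (circles) and with 1 liver left out (triangles), with a dashed line at 0.05. Etnppl and Oat lie below the line in the main test and above it without JIB-04 liver 1 or JIB-04 liver 2, while Cbs, Mat1a and Ass1 lie just above it.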

How the data were processed

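Liver RNA of 4 mice was sequenced, from Trizol extracts with libraries prepared by a sequencing company, per the labels' protocols. The authors deposited 1 table of FPKM values, gene lengths and coordinates, with 1 column per library. The submitters' processing notes name GRCm39 (mm39) as the build. Nothing used here states the aligner, counter, annotation or strand setting. Multiplied by gene length, the FPKM of 100% of values above 0 were whole multiples of the smallest step of their library (tolerance 0.01), and these multiples are the reads given as depth.

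Testing used limma 3.58.1 in R 4.3.3 on log2(FPKM + 1), JIB-04 against untreated, for every gene whose FPKM averaged 1 or more (lmFit and eBayes, trend and robust options, two-sided, with 2 residual degrees of freedom). The design text describes separate mice, so the spread is between animals. With 2 livers against 2, the smallest p of an exact permutation test (two-sided) is 0.333. On simulated data for 10819 genes the test recovered 5.49% of genes changed 1.5-fold, 42.8% at 2-fold, 91.0% at 4-fold and 95.9% at 8-fold. These were 9, 62, 132 and 140 right calls. The same test also called 75 of 31857 unchanged genes (0.235%). All these counts are summed over 3 rounds with 200 changed genes each. Set beside the right calls, the 75 false ones were a larger share of the simulated calls than the threshold of 0.05 states.

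The members and the lists of other genes were chosen with earlier results of these data known. Members are all accounted for. In detail stand those called, those with an absolute log2 change of at least 0.5 and those called in an alternative, and of the other pathway genes those called and the 3 of lowest p after them; further genes were named after their values were seen. Shared sequence is the share of 50-base words of a gene's GENCODE M21 (GRCm38) transcripts found in transcripts of other genes on either strand. It was over 5% for Ahcy, Ass1, Aldh4a1, Bhmt, Got2, Sds, Nags, Glul and Glud1, and their values are uncertain to that extent. For Gls2, Kmo, Prodh and Sds, among others, an expressed gene overlaps on the opposite strand. Overlaps on the same strand include Gm43314 with Cth, Gm52965 with Gls2 and Fgfr2 with Oat. Fgfr2 had 2.96 and 2.47 FPKM in JIB-04 livers and 3.49 and 3.44 FPKM in untreated livers.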

Additional observations from a re-analysis of the deposited data

How the results depend on the processing

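Of 39 members 31 kept the sign of their log2 change in all alternatives, and Arg1, Tat, Uroc1, Haao, Gpt2, Shmt1, Hal and Nags did not. Etnppl could not be fitted at a mean FPKM of at least 5. All 12 members given in detail kept their sign. The counts of calls depended on the processing, and the cause was not tested. In the main test 165 genes were higher and 67 lower, 1 member was higher and 1 lower, and 1 of the other pathway genes was higher and 1 lower.

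Without the filter on low values, where 25266 genes were tested, 20 genes were higher and 0 lower, and 0 members and 0 other pathway genes were called in either direction. With a mean FPKM of at least 5, 3 members were lower and 5 other pathway genes higher. Rescaling to equal totals (TPM proportions) gave 3 members lower. Doing so without the 50 most abundant and mitochondrial genes gave 156 genes higher and 105 lower (59.8% of calls higher, against 71.1% in the main test) and 4 members lower. Quantile normalization gave 4 members lower. Voom on recovered reads gave 349 genes higher and 201 lower, 2 members higher and 8 lower, and 7 other pathway genes higher and 2 lower. Testing protein-coding genes only gave 256 higher and 141 lower, 2 members higher and 6 lower, and 7 other pathway genes higher and 2 lower. The replicate block gave 236 higher and 121 lower, 3 members lower and 3 other pathway genes higher. No label says that a replicate number marks a shared cage, litter or day, so the block was not read as a pairing. Deviations of the same-numbered livers from their group means correlated at -0.05 across all 10819 tested genes. That correlation was not taken over the members alone. Among the 39 members, liver 2 was above liver 1 for 27 in JIB-04 and for 30 in untreated liver.

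With 1 liver left out, the lone liver of a group being assumed to vary like the other group, higher genes ran from 22 to 107 and lower genes from 1 to 54, members higher from 0 to 1 and lower from 0 to 3, and other pathway genes higher from 0 to 0 and lower from 0 to 0. The median log2 change of the members ran from -0.24 to -0.13 over the same 4 fits, and was -0.27 with quantile normalization and -0.24 with rescaling without the 50 most abundant genes. Depth limits Sdsl and Etnppl most, with 316 to 2202 reads in a library.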

Other observations

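A further list held 21 genes, both regulators of hepatic metabolism and genes that answer hormones, feeding or the clock, such as Igfbp1, Tsc22d3 and Per1. All 21 were tested and limma called 0, while 7 (33.3%) had an unadjusted p under 0.05, against 15.5% of all tested genes. Of these 7, Cebpa, Atf5, Per1, Ppargc1a, Ppara and Foxo1 had negative log2 changes and Creb3l3 a positive one. Ppargc1a passed the filter on low values through the untreated livers alone, which favours a negative change. It had 0.860 and 0.715 FPKM in JIB-04 livers and 1.49 and 1.71 FPKM in untreated livers. Negative log2 changes were found for 17 of the 21 (81.0%), against 48.6% of all tested genes. Cebpa, a transcription factor of hepatocyte metabolism, averaged 106 ± 2.62 FPKM in JIB-04 and 157 ± 16.9 FPKM in untreated liver (SD, n = 2 each; limma adjusted p = 0.101). Atf5 averaged 58.7 ± 8.11 FPKM in JIB-04 and 83.6 ± 2.90 FPKM in untreated liver (limma adjusted p = 0.140). Per1, a clock gene, had 6.76 and 6.60 FPKM in JIB-04 livers and 10.6 and 9.45 FPKM in untreated livers (limma adjusted p = 0.0910). Creb3l3, a liver transcription factor of the fasting response, had 127 and 133 FPKM in JIB-04 livers and 104 and 96.2 FPKM in untreated livers (limma adjusted p = 0.210). Hnf4a, the hepatocyte master regulator, had 110.4 and 97.7 FPKM in JIB-04 livers and 113 and 106 FPKM in untreated livers (limma adjusted p = 0.866). Igfbp1, which answers fasting and insulin, had 2.28 and 11.1 FPKM in JIB-04 livers 1 and 2 and 18.3 and 3.61 FPKM in untreated livers 1 and 2, so it differed within each group. These genes were named after their values were seen.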
